A study of Arabidopsis thaliana with 6 samples.

Results

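The transposable element (TE) genes of chromosome 2 of Arabidopsis thaliana are the 826 entries of the deposited TE gene table whose identifiers begin with AT2G, out of 3901 TE genes on 5 chromosomes. They were described by their RNA in seedlings aged 7 days, in 3 libraries of wild-type Col and 3 libraries of the mutant tsk-4, which is also in the Col ecotype. tsk-4 is an allele of TONSOKU (TSK), which encodes a nuclear protein that works at replicating chromosomes. The kind of lesion in tsk-4 is not given in the sources used here. Values are TPM, transcript abundances per 1000000 within the TE gene table, from which whole reads per gene were recovered, and a TE gene with at least 1 read in a library is called detected there. Whether the replicates were grown as separate cultures is not stated, and p-values thus cover no more than the spread between these libraries, which may be technical. In bulk RNA, fewer cells that transcribe an element and less RNA per cell cannot be told apart.

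TE genes are annotated open reading frames or their remnants inside transposons. Retrotransposons copy themselves through RNA, and those with long terminal repeats (LTRs) start reverse transcription from a tRNA bound just inside the upstream repeat. DNA transposons such as CACTA and Mutator elements move by a transposase. In Arabidopsis most elements lie in the heterochromatin around the centromeres, where DNA methylation in all sequence contexts, histone H3 lysine 9 dimethylation and the histone variant H2A.W hold them silent, so that a seedling transcribes few of them.

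All 826 are annotated as pseudogenes in RefSeq (TAIR10.1). They run from AT2G01022, which starts at base 10478, to AT2G45230, which ends at base 18655444, with 405 on the plus strand and 421 on the minus strand. Their lengths run from 127 to 10188 bases with a median of 2086.5 bases. A note in the annotation describes 14 of them and 3 have a symbol of their own.

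The sequences of a few of them, read 5′ to 3′ on the coding strand from the RefSeq TAIR10.1 genome, show what kind of copies the reads had to be told apart from. AT2G06720, the TE gene of chromosome 2 with the most reads among those silent in Col, is shown over chr2:2680241-2680360 (minus strand) beside its closest copy, AT3G42720 at chr3:14829780-14829899 (minus strand). The 2 TE genes were 92.8% identical over 1668 aligned bases, and capitals mark the 3 bases that differ within the 120 shown. These 120 are the first aligned without a gap, and they are more alike than the alignment as a whole.
AT2G06720: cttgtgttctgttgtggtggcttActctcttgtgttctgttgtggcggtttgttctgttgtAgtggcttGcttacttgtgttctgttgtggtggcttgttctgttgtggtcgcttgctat
AT3G42720: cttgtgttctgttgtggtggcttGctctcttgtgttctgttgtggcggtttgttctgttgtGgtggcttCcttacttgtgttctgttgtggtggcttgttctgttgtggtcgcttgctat

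AT2G10285 and AT2G10280 are neighbours in the identifier order and both had reads in tsk-4 alone. They are shown over chr2:3955093-3955212 and chr2:3948549-3948668 (both plus strand), where capitals again mark the 3 bases of 120 that differ. Over 674 aligned bases they were 98.1% identical, and the 120 shown are again the first without a gap.
AT2G10285: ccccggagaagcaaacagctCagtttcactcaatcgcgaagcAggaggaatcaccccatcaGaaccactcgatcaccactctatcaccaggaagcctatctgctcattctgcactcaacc
AT2G10280: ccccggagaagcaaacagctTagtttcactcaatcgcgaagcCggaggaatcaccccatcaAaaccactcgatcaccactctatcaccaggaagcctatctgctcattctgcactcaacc

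A family of 5 TE genes of chromosome 2, all called higher in tsk-4, is shown over the same 100 bases of an alignment, of which 5 positions vary. The stretch was taken as the first without a gap in which at least 5 positions vary. Capitals mark a base that differs from the most common base of the 5. The stretches lie at chr2:2718731-2718830, chr2:4042376-4042475 and chr2:4167496-4167595 on the plus strand and at chr2:4912258-4912357 and chr2:4927142-4927241 on the minus strand, in the order of the lines.
AT2G06800: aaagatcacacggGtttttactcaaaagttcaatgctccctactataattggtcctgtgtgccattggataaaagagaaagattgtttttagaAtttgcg
AT2G10490: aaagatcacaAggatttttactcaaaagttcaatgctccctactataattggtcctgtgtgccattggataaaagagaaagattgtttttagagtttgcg
AT2G10640: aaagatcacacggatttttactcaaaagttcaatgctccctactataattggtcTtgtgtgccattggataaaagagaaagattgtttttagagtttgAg
AT2G12240: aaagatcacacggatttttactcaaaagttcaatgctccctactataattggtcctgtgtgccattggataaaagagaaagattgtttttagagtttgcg
AT2G12300: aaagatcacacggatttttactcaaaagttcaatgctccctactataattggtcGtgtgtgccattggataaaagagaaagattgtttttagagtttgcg

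AT2G06950, abundant in all libraries, and AT2G16000, nearly silent in Col, both have the plant primer binding motif TGGTATCAGAGC upstream, in capitals. This motif pairs with the initiator methionine tRNA and marks the inner border of an upstream LTR in many plant elements. The stretches are chr2:2863435-2863487 (minus strand) and chr2:6954153-6954212 (plus strand), and the motif begins 29 and 107 bases before the annotated start.
AT2G06950 upstream: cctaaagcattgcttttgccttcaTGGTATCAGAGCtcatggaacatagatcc
AT2G16000 upstream: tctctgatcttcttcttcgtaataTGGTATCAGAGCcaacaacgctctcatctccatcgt

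SADHU1-1 (AT2G10410), a member of the Sadhu family of non-coding retroelements, had the highest TPM of the chromosome. Its first 100 bases, chr2:4006945-4007044 on the minus strand, are shown in lower case throughout because no copy of at least 150 bases at 80% identity was found for it.
SADHU1-1: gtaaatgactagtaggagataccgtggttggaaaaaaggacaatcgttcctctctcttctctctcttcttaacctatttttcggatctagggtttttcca

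The libraries were even in depth, with 13702601 to 14918327 reads in the gene table and 20505 to 24565 reads in the TE gene table. TSK (AT3G18730) itself measured 3.62 ± 0.234 TPM in Col against 0.903 ± 0.0657 TPM in tsk-4 (SD, n = 3; gene table), a log2 change of -1.55 (limma adjusted p = 0.00097). In 1 kb of TE gene, 1 read was worth 99.6 to 123 TPM. Most chromosome 2 TE genes therefore lie at the limit of what these libraries can count. A TE gene with 0 reads in a library can still have up to 3 reads' worth of RNA at this depth.

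More chromosome 2 TE genes had reads in tsk-4 than in Col. At least 1 read fell on 84, 85 and 101 of the 826 in Col replicates 1, 2 and 3, and on 173, 162 and 166 in tsk-4 replicates 1, 2 and 3. Every tsk-4 library lay above every Col library. The means were 90 ± 9.54 and 167 ± 5.57 TE genes (SD, n = 3), a ratio of 1.86 (two-sided exact permutation p = 0.1, the smallest that 3 libraries against 3 allow). With at least 3 reads required the means were 40 ± 2.65 and 74 ± 5.29 TE genes, and with at least 10 reads 24 ± 1 and 31.7 ± 2.31 TE genes, again without overlap. The excess in tsk-4 was thus present at each read minimum and smaller as a ratio, 1.32, at 10 reads.

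The excess in detection on chromosome 2 was near that of the other chromosomes. In percent, 10.9 ± 1.15% of its TE genes were detected in Col against 20.2 ± 0.674% in tsk-4 (SD, n = 3), beside 10.9 ± 0.444% and 18.9 ± 0.413% of those of the other chromosomes. The ratio of 1.86 stood between 2.02 on chromosome 4 and 1.76 on chromosome 3, with 1.64 on chromosome 1 and 1.62 on chromosome 5. Chromosome 2 held 21.2 ± 2.25% of all detected TE genes in Col and 22.3 ± 0.365% in tsk-4, and a difference was not shown (two-sided exact permutation p = 0.5, n = 3 per group).

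**Figure D1:**
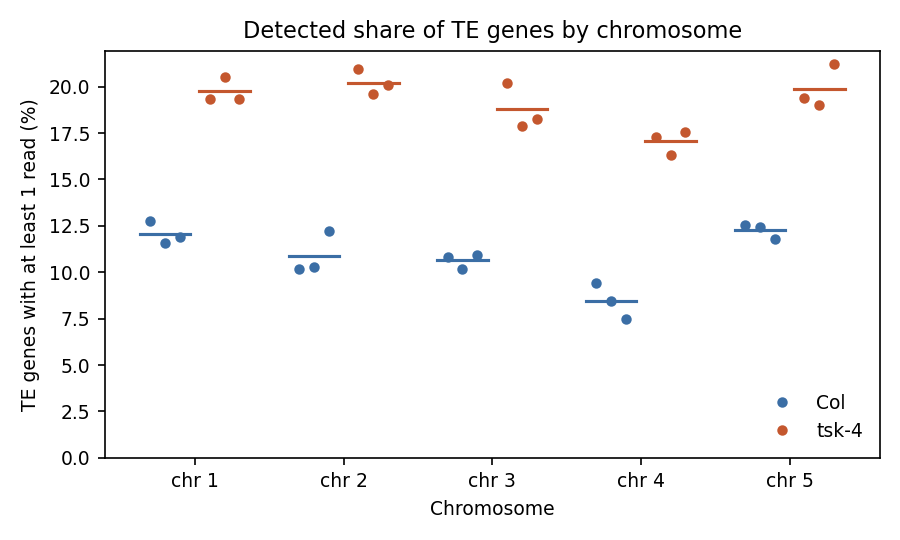
Percent of the TE genes of each chromosome with at least 1 read, 1 point per library (3 Col in blue, 3 tsk-4 in orange) with a bar at the mean. On chromosome 2 the Col libraries sit between 10.2% and 12.2% and the tsk-4 libraries between 19.6% and 20.9%, and on every chromosome the tsk-4 points lie above the Col points.

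Detection was uneven over the members. Of the 826 TE genes, 510 (61.7%) had no read in any library, 118 (14.3%) had reads in both genotypes and 40 (4.84%) had reads in all 6 libraries. Over all 3901 TE genes these shares were 64.5%, 13.2% and 5.15%. Reads in tsk-4 alone were found on 162 (19.6%) and reads in Col alone on 36 (4.36%), beside 17.8% and 4.46% over all chromosomes. The 162 were mostly thin, with a median of 2 reads over the 3 tsk-4 libraries, 62 with 1 read and 9 with 10 or more. The 36 with reads in Col alone were thinner, with 29 at 1 read and a highest total of 3.

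A pattern that repeated over replicates was seen in 1 direction on this chromosome. All 3 tsk-4 libraries and no Col library had reads on 20 TE genes (2.42%), while 0 had reads in all 3 Col libraries and none in tsk-4. Over all chromosomes these numbers were 113 (2.90%) and 2 (0.0513%), so the share on chromosome 2 was near that of the whole. TE genes silent in Col took 205, 218 and 198 reads in tsk-4 replicates 1, 2 and 3, so the 3 libraries were close to each other. The TE genes never detected were shorter, with a median of 1544.5 bases, than those with reads in tsk-4 alone (2638 bases) or in both genotypes (2851.5 bases). A longer gene collects more reads at the same TPM, and its part in these classes was not tested.

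Along the identifier order, which follows the chromosome except at 8 neighbours, the number detected was compared in blocks. The members were cut into 14 blocks of 59 consecutive identifiers. In all 14 the mean number detected was higher in tsk-4, in 11 the libraries did not overlap between genotypes, and in 0 was every tsk-4 library below every Col library. The widest gap lay in block 9 (AT2G11507 to AT2G12345), with 5, 1 and 2 TE genes detected in Col and 14, 11 and 13 in tsk-4. Block 6 (AT2G09800 to AT2G10290) had exactly 1 in each Col library and 6, 7 and 10 in tsk-4. In both blocks every tsk-4 library stood clear of every Col library.

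The other blocks differed in how much Col itself showed. Block 14 (AT2G18820 to AT2G45230), which covers most of the long arm, had 17, 18 and 16 detected in Col and 25, 23 and 21 in tsk-4. It was the block with the most detected TE genes in Col, and its libraries did not overlap either. The libraries overlapped in blocks 2, 3 and 5. In block 5 (AT2G07395 to AT2G09790) Col had 1, 0 and 2 and tsk-4 had 6, 1 and 6, so that tsk-4 replicate 2 lay within the Col range.

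**Figure D2:**
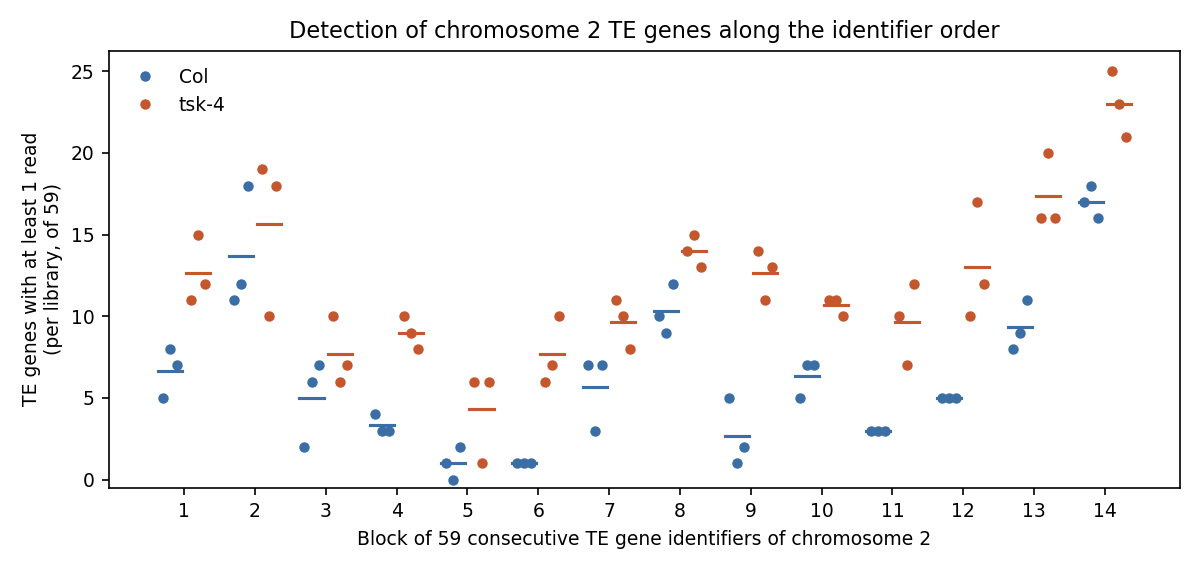
Number of TE genes with at least 1 read in each of 14 blocks of 59 consecutive chromosome 2 identifiers, 1 point per library (Col blue, tsk-4 orange) with a bar at the mean. The tsk-4 mean is above the Col mean in all 14 blocks, and the points of the genotypes overlap in blocks 2, 3 and 5.

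Most of these TE genes crowd around the centromere. Within 3 Mb of an approximate centromere position of 3.6 Mb, set by hand, lay 701 of the 826 (84.9%). Of these near TE genes 9.32 ± 1.35% were detected in Col against 18.1 ± 0.872% in tsk-4 (SD, n = 3). Of the 125 outside, 19.7 ± 2.01% and 32.3 ± 1.67% were detected. Both regions separated the genotypes fully (two-sided exact permutation p = 0.1 for each, n = 3 per group).

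In each genotype a smaller part of the near TE genes than of the others was detected. The near TE genes made up 73.8%, 68.2% and 75.2% of the detected TE genes in Col replicates 1, 2 and 3 and 76.3%, 74.1% and 77.1% in tsk-4. The ranges overlapped, and a difference was not shown (two-sided exact permutation p = 0.2, n = 3 per group). In windows of 1 Mb, the fourth megabase, which contains the assumed centromere, had 137 TE genes, of which 2.33 ± 1.15 were detected in Col and 13.3 ± 4.04 in tsk-4. The fifth megabase had the most members, 174, with 19.3 ± 4.62 and 38 ± 2 detected. On the long arm, where windows hold few members, some showed no excess in tsk-4. The 11th megabase, with 15 members, had 5, 5 and 4 detected in Col and 6, 5 and 1 in tsk-4. The means were equal in the 14th and 17th megabases, with 3 members each, and the 19th, with AT2G45230 alone, had the higher mean in Col.

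Reads were concentrated on a handful of TE genes that were not called in either direction. The 826 together took 6750, 7176 and 6794 reads in the Col libraries and 7886, 6721 and 7873 in the tsk-4 libraries. Per 1000000 reads of the gene table this was 481 ± 12.02 for Col against 509 ± 35.95 for tsk-4 (SD, n = 3), with tsk-4 replicate 2 below all Col libraries (two-sided exact permutation p = 0.4). The 5 with the most reads held 85.1 ± 0.867% of the reads in Col and 82.1 ± 0.217% in tsk-4. Without these 5 the rest took 71.7 ± 2.51 and 91.1 ± 5.62 reads per 1000000, and every tsk-4 library exceeded every Col library (two-sided exact permutation p = 0.1, n = 3 per group). Such a level joins tables that the authors normalized apart from each other.

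Chromosome 2 took between 31.4% and 33.2% of all TE gene reads in each library. Its share was 32.9%, 33.2% and 33.0% in Col replicates 1, 2 and 3 and 32.4%, 31.4% and 32.0% in tsk-4. All tsk-4 libraries lay below Col, by 1.09 percentage points on average (33.0 ± 0.135% against 31.9 ± 0.505%, SD, n = 3; two-sided exact permutation p = 0.1). Without the 5 TE genes with the most reads the difference turned, with tsk-4 higher by 0.896 percentage points.

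SADHU1-1 had the highest TPM. It had 980, 1140 and 1136 reads in the Col libraries and 1112, 1191 and 1037 in the tsk-4 libraries, or 122289 ± 7111 and 109675 ± 12898 TPM (SD, n = 3). The libraries overlapped, and the log2 change was -0.16 ± 0.088 (SE; limma adjusted p = 0.25). It overlaps the TE gene AT2G10405 on the other strand. Whether the counting used strand is not given in the sources used here, so reads of the partners of such a pair cannot be told apart.

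AT2G11240 (chr2:4477686-4483748) had the most reads, 3663, 3686 and 3359 in Col and 4045, 3131 and 4195 in tsk-4. It alone held 51.7 ± 2.43% of all reads on chromosome 2 TE genes in Col against 50.4 ± 3.44% in tsk-4 (SD, n = 3). Its TPM was 69760 ± 4186 and 64202 ± 6841, with overlapping libraries and a log2 change of -0.12 ± 0.087 (SE; limma adjusted p = 0.40). It overlaps AT2G11215 and AT2G11225 on the other strand.

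AT2G06950 (chr2:2859226-2863434), shown above with its primer binding motif, had 539, 647 and 672 reads in the Col libraries and 639, 626 and 599 in the tsk-4 libraries. It measured 17403 ± 1627 TPM in Col and, in tsk-4, 15241 ± 982 TPM (SD, n = 3) with overlapping libraries, and no change was called (log2 change -0.19, limma adjusted p = 0.22). AT2G13970 had 365, 361 and 325 reads in the Col libraries and 364, 287 and 342 in the tsk-4 libraries. Its reads overlapped, while its TPM did not, at 17028 to 19762 in Col and 13864 to 15993 in tsk-4 (log2 change -0.29, limma adjusted p = 0.055). It overlaps AT2G13965 on the other strand.

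The last of the 6 with the highest TPM were AT2G13975 and AT2G24760. AT2G13975 lies on the minus strand, just beyond the end of AT2G13970 on the plus strand. It had 75, 71 and 106 reads in the Col libraries and 80, 72 and 80 in the tsk-4 libraries, a log2 change of -0.30 (limma adjusted p = 0.25). AT2G24760, on the long arm at 10547026 to 10549520, had 236, 298 and 220 reads in the Col libraries and 331, 268 and 288 in the tsk-4 libraries, a log2 change of 0.04 (limma adjusted p = 0.86). Their reads overlapped between genotypes, and on TPM AT2G13975 did not overlap, at 11301 to 17552 TPM in Col and 10992 to 11233 TPM for tsk-4. AT2G24760 overlaps AT2G24755 on the other strand. None of the 6 most abundant TE genes was called in either direction.

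**Figure D3:**
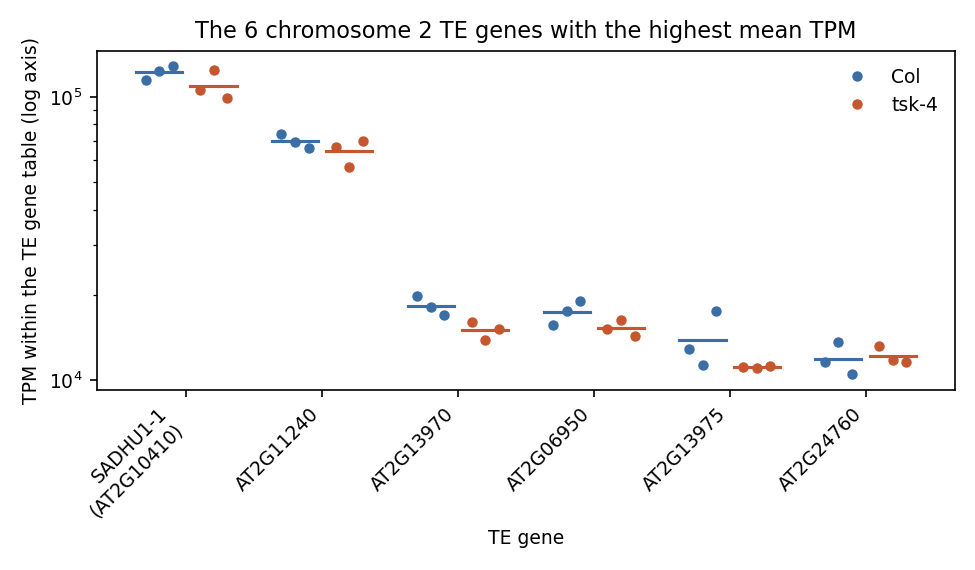
TPM within the TE gene table (log axis) of the 6 chromosome 2 TE genes with the highest mean, 1 point per library (Col blue, tsk-4 orange) with a bar at the mean. SADHU1-1 has a mean of 122289 TPM in Col and of 109675 TPM in tsk-4, and AT2G13970 and AT2G13975 are the genes whose points do not overlap on this scale.

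For each TE gene the genotypes were compared with limma on log2(TPM + 50), where 50 TPM is below the worth of 1 read in 1 kb, among TE genes that reached 1 TPM in 3 or more of the 6 libraries. Of the 826 members 117 passed this filter, and 28 of them (23.9%) were called higher in tsk-4 and 1 (0.855%) lower at an adjusted p under 0.05, against 25% and 3.31% of all 543 TE genes tested. The share called higher was thus near that of the whole table. The share called lower was below it and rests on 1 call. The median log2 change of the 117 was 0.37, beside 0.25 over all tested. Of the 117, 20 had no Col read and passed the filter through tsk-4 alone. For these the call restates the pattern of detection, and 19 of them were called. The other 9 higher calls had at least 1 read in Col. Those with reads in 1 Col library only also needed tsk-4 to pass the filter.

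The read numbers behind the calls were small. The 28 had between 3 and 125 reads over the 3 tsk-4 libraries with a median of 11.5, and 11 had under 10 reads in all. On the recovered reads, with at least 10 reads required, limma-voom tested 65 members and called 18 higher and 2 lower, against 29.9% and 3.19% of the whole table, and 16 of the 18 were also called on TPM. Regardless of any test, all 3 tsk-4 libraries lay above all 3 Col libraries in TPM for 33 of the 117 (28.2%) and below for 11 (9.40%), beside 30% and 8.47% over all tested TE genes.

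These counts depended on the filter, the scaling and on each library. With no filter 9 members were called higher and with a mean of at least 100 TPM 9. Quantile normalization, which moved the median of all tested TE genes from 0.25 to -0.20, called 8 higher and 8 lower. Without Col replicates 1, 2 and 3 in turn, and the filter applied anew, 14, 12 and 16 were called higher. Without tsk-4 replicates 1, 2 and 3 the numbers were 0, 2 and 1. The 19 calls silent in Col then fail a filter of 3 libraries, and most of the 9 with reads in Col were not called either. On the features of the full test they were 10, 10 and 13 without a Col library and 18, 21 and 21 without a tsk-4 library. The count of lower calls was 0 without Col replicates 2 or 3 and 5 without tsk-4 replicate 1 on those features.

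**Figure D4:**
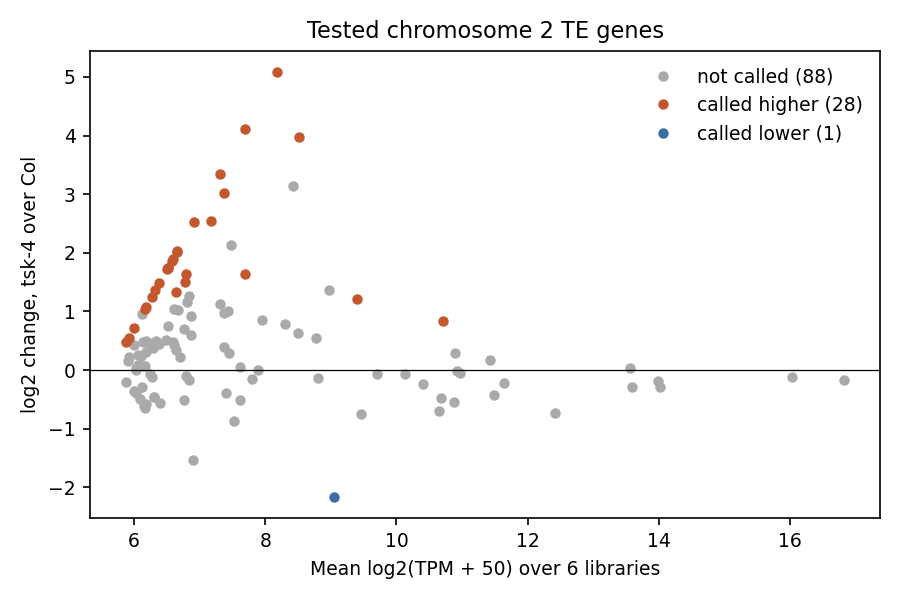
Log2 change of tsk-4 over Col against the mean of log2(TPM + 50) over the 6 libraries for the 117 tested chromosome 2 TE genes (28 called higher in orange, 1 called lower in blue, 88 not called in grey). The calls sit at low mean levels with AT2G06720 highest at 5.08, while the 2 most abundant TE genes at the right lie at -0.12 and -0.16.

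AT2G06720 (chr2:2678827-2681289) stood first among the members silent in Col. It had 0 reads in all 3 Col libraries and 30, 43 and 47 in tsk-4. With its 120 reads it was higher by at least 37.2-fold, where Col was set to a floor of 3 reads over the group. Such bounds, here and below, take the tsk-4 reads as exact and leave out their counting error. For AT2G06720 and the other members silent in Col no adjusted p is given, since they entered the test through tsk-4 alone. The closest copy, AT3G42720, had 0 and 11 reads.

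AT2G10285, whose sequence is shown above, had 0 reads in the Col libraries and 5, 5 and 6 in the tsk-4 libraries, the most even of the 12 described here. It was at least 4.97-fold higher. Its neighbour AT2G10280, which shares the copied stretch but is 7231 bases long, had 2, 1 and 2 reads in tsk-4 and 0 in Col. At 98.1% identity some reads could belong to either, since the handling of reads that map to several places is not given in the sources used here.

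AT2G11600 had 13, 12 and 3 reads in tsk-4 and AT2G09187 had 11, 14 and 3, each with 0 in every Col library. For both, tsk-4 replicate 3 was the low library, and both were at least 8.69-fold higher. AT2G13175 had 8, 7 and 4 reads in tsk-4, at least 5.90-fold higher. AT2G14180 had 6, 3 and 8, at least 5.28-fold higher. For members silent in Col, reads in every tsk-4 library were a condition of the filter. AT2G09187 and AT2G14180 are relatives, 90.6% identical over 2863 bases.

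Of the 6 described here with reads in Col, 3 had 1 or 2 reads there, so their ratios have wide intervals. These reads lay in 1 Col library, so all 3 passed the filter through tsk-4, and their adjusted p partly restates detection. AT2G16000 (chr2:6954284-6958648), shown above with its primer binding motif, had 0, 0 and 1 reads in the Col libraries and 17, 22 and 15 in the tsk-4 libraries. The ratio of depth-corrected reads was 50.3 (95% counting interval 8.65 to 2022; limma adjusted p = 0.0038). AT2G11780 had 1, 0 and 0 reads in the Col libraries and 6, 14 and 10 in the tsk-4 libraries, a ratio of 27.9 (interval 4.64 to 1140; limma adjusted p = 0.011). AT2G05950 had 0, 0 and 2 reads in the Col libraries and 17, 5 and 21 in the tsk-4 libraries, a ratio of 20.02 (interval 5.21 to 171; limma adjusted p = 0.017). Its tsk-4 replicate 2 was the low library. The choice of these genes required every tsk-4 library to lie above every Col library.

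The remaining ones were expressed in every Col library. AT2G11300 had 1, 1 and 3 reads in the Col libraries and 10, 9 and 6 in the tsk-4 libraries, a ratio of 4.66 (interval 1.75 to 15.6; limma adjusted p = 0.030). AT2G04460 had 4, 7 and 4 reads in the Col libraries and 13, 20 and 10 in the tsk-4 libraries, and its TPM rose from 402 ± 125 to 1024 ± 422 (SD, n = 3; log2 change 1.21 ± 0.36, limma adjusted p = 0.048). AT2G15800 had 17, 18 and 24 reads in the Col libraries and 41, 30 and 54 in the tsk-4 libraries, the most reads of the 28, with TPM rising from 1215 ± 235 to 2226 ± 568 (log2 change 0.83 ± 0.25, limma adjusted p = 0.047). All 3 were chosen among members whose genotypes do not overlap.

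AT2G15800 is the 1 member of the 28 that overlaps an annotated gene, out of 35 such members of the 826. Its partner AT2G15790 on the other strand had 595 reads in the Col libraries and 725 in the tsk-4 libraries (log2 change 0.26, limma adjusted p = 0.092).

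Among the 6 of these 12 with reads in Col, the calls varied over 22 alternative settings. AT2G16000 was called in 21 of 22, AT2G11780 in 18 and AT2G05950 in 15. AT2G11300 was called in 10 of 22, AT2G15800 in 8 and AT2G04460 in 5, with adjusted p up to 0.26, 0.21 and 0.31. The thinnest calls of the 28 were AT2G12240 and AT2G12770 at 1 read in each tsk-4 library and none in Col, too few to bound the rise.

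**Figure D5:**
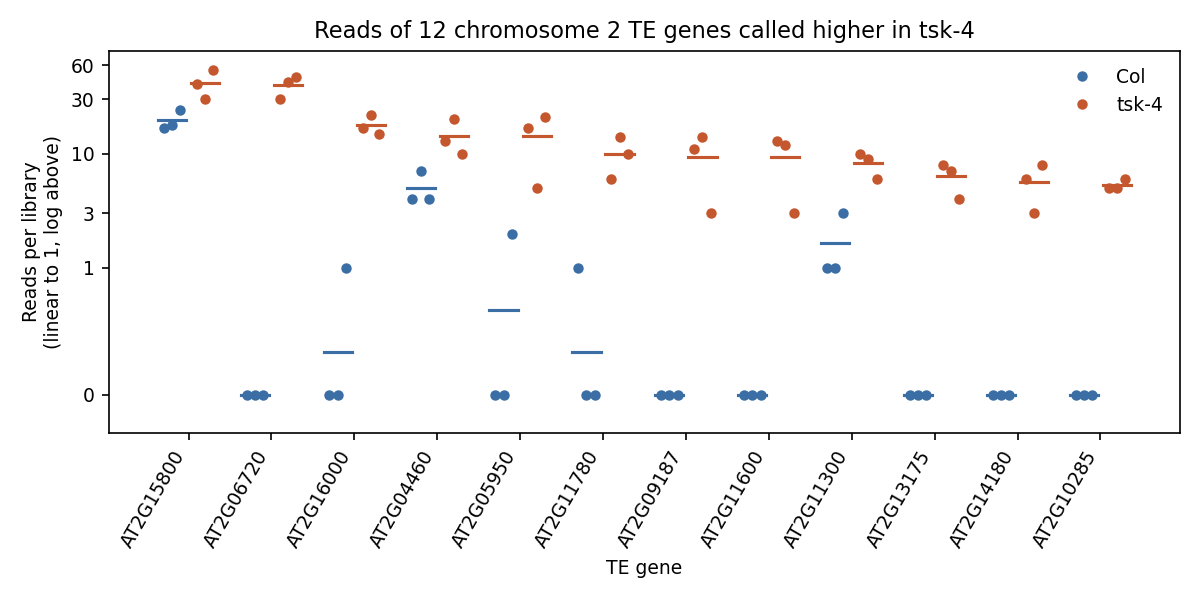
Reads per library of the 12 chromosome 2 TE genes called higher with the most tsk-4 reads, 1 point per library (Col blue, tsk-4 orange) with a bar at the mean (axis linear to 1, log above). In 6 of the 12 all Col points lie at 0, and in all 12 the lowest tsk-4 point is above the highest Col point, as the choice of these genes required.

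AT2G03540 (chr2:1073759-1074515) was the 1 member called lower. It had 3, 13 and 8 reads in the Col libraries and 3, 1 and 1 in the tsk-4 libraries, or 1234 ± 737 and 224 ± 148 TPM (SD, n = 3; log2 change -2.16 ± 0.59, limma adjusted p = 0.036). In reads, Col replicate 1 and tsk-4 replicate 1 were equal. The call held in 10 of 22 alternative settings, with adjusted p from 0.026 to 0.16, and was lost without Col replicate 2 or 3 (log2 change -1.74 and -2.05). It overlaps AT2G03530 on the same strand, which had 300 reads in the Col libraries and 183 in the tsk-4 libraries, 6.09 ± 1.55 and 3.66 ± 0.824 TPM in the gene table (limma adjusted p = 0.064). Reads on the shared stretch cannot be told apart.

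Both genes called higher on reads alone and the gene called lower on reads alone were named after their values were seen. MEE19 (AT2G34130), known from a mutant whose embryos arrest, had 0, 5 and 0 reads in the Col libraries and 15, 7 and 7 in the tsk-4 libraries. AT2G42050 had 0, 0 and 2 reads in the Col libraries and 5, 2 and 6 in the tsk-4 libraries. On TPM their limma adjusted p was 0.070 and 0.065. AT2G05080, with 53, 81 and 84 reads in the Col libraries and 45, 49 and 56 in the tsk-4 libraries, had a limma adjusted p of 0.059. MEE19 overlaps AT2G34100 on the other strand, and reads of these partners cannot be told apart.

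The family of 5 shown above was spread over more than 2 Mb of the pericentromere. AT2G06800 had 0 reads in the Col libraries and 1, 5 and 4 in the tsk-4 libraries. AT2G10490 had 1, 0 and 0 in Col and 4, 5 and 2 in tsk-4. AT2G12300 had 0 in Col and 5, 3 and 3 in tsk-4. AT2G10640 and AT2G12240 had 4 and 3 reads in tsk-4 and 0 in Col. For those of the 5 silent in Col, the filter required reads in each tsk-4 library.

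Pairs within this family were 93.3% to 98.8% identical over 1161 to 2123 aligned bases. With relatives on other chromosomes (at least 90% identity over at least 1000 bases) it had 11 TE genes on 3 chromosomes, which together took 1 read in Col and 77 in tsk-4. Reads were seen in tsk-4 on 10 of the 11. The 5 were put together because they were called higher, so these totals are no evidence of a direction. The 5 members on chromosome 2 share sequence, and a read of one may be counted on another, so they are not separate measurements.

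Among the members with a note in the annotation, AT2G11150, described as a pseudogene of replication protein A1, had the most reads after SADHU1-1. It had 14, 18 and 21 reads in the Col libraries and 14, 12 and 9 in the tsk-4 libraries, or 871 ± 162 and 502 ± 109 TPM (SD, n = 3). The reads touched at 14 and the TPM did not overlap (log2 change -0.74, limma adjusted p = 0.091). AT2G10900, which resembles a non-LTR retroelement protein, had 7 reads in the Col libraries and 9 in the tsk-4 libraries, and AT2G07070 had 6 and 10. AT2G06220 and AT2G13431 had 0 reads in the Col libraries and 2 and 3 in the tsk-4 libraries. None of these was called. AT2G10900 overlaps AT2G10625 and AT2G13431 overlaps AT2G13430, each on the other strand.

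MUG2 (AT2G30640), a member of the MUSTANG genes that descend from Mutator transposases, was looked at for its symbol after its values were seen. It had 25, 40 and 32 reads in the Col libraries and 40, 45 and 51 in the tsk-4 libraries (log2 change 0.30, limma adjusted p = 0.40). CAC1 (AT2G12210), a CACTA transposon known to move when DNA methylation is lost, had 0 reads in the Col libraries and 1, 0 and 0 in the tsk-4 libraries. At this depth no difference was detectable for CAC1. The first identifier, AT2G01022, had 0 reads in the Col libraries and 3, 0 and 2 in the tsk-4 libraries, and the last, AT2G45230, had 0, 2 and 1 in Col and 1, 0 and 0 in tsk-4.

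Most of the higher calls lay near the centromere, as did most members. Near the centromere lay 24 of the 28 (85.7%), beside 84.9% of all members and 71.8% of those tested. The last of them along the chromosome was AT2G19140 at 8297917 to 8301717, with 0, 0 and 2 reads in the Col libraries and 4, 6 and 5 in the tsk-4 libraries (limma adjusted p = 0.046). With reads in a single Col library, AT2G19140 passed the filter through tsk-4. Beyond it, over the greater part of the long arm, no member was called on TPM, but few were tested there. Block 14, which holds AT2G19140 and all members beyond it, had 22 of its 59 members tested. Of these 22, AT2G19140 was the 1 called higher, beside 25% of all TE genes tested.

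Copies were common in every detection class. A stretch of at least 150 bases at 80% identity elsewhere in the genome was found for 675 of the 826 (81.7%) and one at 98% identity for 147 (17.8%). Of the 28 higher calls 26 had the former and 7 the latter. A copy at 98% was found for 22.8% of the members with reads in tsk-4 alone, 13.6% of those with reads in both genotypes and 17.1% of those never detected. AT2G13970, AT2G13975 and AT2G24760, among the most abundant, had no copy at 80%.

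The primer binding motif was searched in the 2000 bases before each annotated start. On the coding strand it was present for 57 of the 826 (6.90%), beside 254 of all 3901 TE genes (6.51%), and on either strand for 65 (7.87%) and 294 (7.54%). Among the 117 tested members 13 had it on the coding strand (11.1%), among the 510 never detected 22 (4.31%), and among the 28 higher calls 1, AT2G16000. A match describes these letters only.

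Direct repeats on both sides of the gene (at least 300 bases at 90% identity or more within 8 kb), as a pair of LTRs would form, were found for 8 of 35 members searched. AT2G16000, shown above with the motif, was among those searched and had no such pair. AT2G06950 had the closest pair, 732 bases at 100% identity, and its upstream copy ended 30 bases before the start, at the base before the primer binding motif. Its downstream copy began 93 bases inside the annotated end. AT2G14180 had 1902 bases at 92.6% and AT2G11300 had 393 bases at 96.2%. AT2G09187, AT2G10280, AT2G10640, AT2G12300 and AT2G13050 had repeats at 90.3% to 98.1% identity. In these and in AT2G11300 the downstream copy began 4027 to 7625 bases past the annotated end. Whether such distant repeats belong to the same element as the gene was not tested.

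Genes beside the 28 were few. Within 2 kb lay 10 genes of the gene table next to 8 of the TE genes, of which 7 could be tested. In the gene table, 14.9% of tested genes were called higher and 4.96% lower. Of the 7, 2 were called higher and 1 lower, and both higher ones reached 1 TPM in tsk-4 libraries alone, which is how they passed the filter. AT2G00430, 874 bases from AT2G05950, had 18 reads in the Col libraries and 66 in the tsk-4 libraries. AT2G07135, 58 bases from AT2G19140, had 0 and 9 reads. AT2G16005, 444 bases from AT2G16000, fell from 44.7 ± 5.55 to 32.8 ± 3.95 TPM (SD, n = 3; limma adjusted p = 0.026), while AT2G16000 itself was higher.

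The shares of silencing genes called were near those of the whole gene table. Of 25 genes for DNA methylation, histone methylation, small RNA and heterochromatic histones 24 were tested, with 4 (16.7%) called higher and 2 (8.33%) lower, beside the 14.9% and 4.96% above. The median log2 change was 0.17, beside 0.083 over all tested genes. DCL3, the Dicer that makes the small RNAs of RNA-directed DNA methylation, rose from 3.67 ± 0.257 to 6.01 ± 0.870 TPM (limma adjusted p = 0.018). HTA7, an H2A.W gene, and the linker histone genes H1.1 and H1.2 rose by log2 changes of 0.36, 0.37 and 0.28. CMT2, a methyltransferase of pericentromeric TEs, and the demethylase ROS1 were lower, by log2 changes of -0.49 and -0.74. Their part in the values of the TE genes was not tested.

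Markers of pollen, sperm and seed overlapped between the genotypes in summed level, while leaf markers did not. Of 5 pollen and sperm genes, HTR10, DUO1 and GEX2 had 0 reads in every library. The 5 summed to 0.399 to 1.08 TPM in Col, against 0.661 to 1.38 TPM in tsk-4. The seed genes CRA1 and EM6 summed to 37.3 to 110.1 TPM in Col, against 37.2 to 82.7 TPM in tsk-4, and neither was called. The leaf genes RBCS1A and LHCB5 summed to 31731 to 32765 TPM in Col, against 30048 to 30167 TPM in tsk-4, with RBCS1A lower and LHCB5 higher in tsk-4.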

How the data were processed

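RNA of 3 Col and 3 tsk-4 libraries was used, grouped by sample title. Per the submitters' processing notes the build was TAIR10 and the authors' tools were HTSeq 0.11.2, DESeq2 1.26.0, HISAT2 and fastp 0.20.1. The role of each, strand use and the handling of multiply mapped reads were not given in the sources used. The authors deposited TPM for genes, TE genes and TE fragments, and each table sums to 1000000 in every library, so tables were normalized separately.

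TPM times the genomic span in RefSeq TAIR10.1 and 1 constant per library gave whole reads within 0.02 reads for at least 99.76% of TE gene values above 0. All 3901 TE genes and 33044 of 33189 genes matched the annotation. The test was limma 3.58.1 (R 4.3.3, trended variance) on log2(TPM + 50) for TE genes and log2(TPM + 0.5) for genes that reached 1 TPM in 3 or more libraries, with Benjamini-Hochberg adjustment over the whole table. Fold changes on these scales understate the change of low genes. The reads test was limma-voom with at least 10 reads and gene table library sizes with median-ratio factors. Values per library were compared with exact permutation tests. Counting intervals are exact binomial at 95% and cover counting error only. Scripts were tested on simulated data. The primer binding motif was taken from the initiator tRNA genes of the annotation with the CCA tail added. Copies, repeats and alignments used BLAST 2.17.0 and MAFFT 7.526, and the rest Python 3.11.15.

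The members and gene lists were chosen with earlier results of these data known. Named TE genes are the 12 called higher with the most tsk-4 reads and no overlap between genotypes, the lower calls, the 6 with the highest TPM, those with at least 80% of at least 10 reads in 1 library (none was found), those with reads in all 3 Col libraries and none in tsk-4 (none was found), up to 6 with a note, CAC1, the first and last identifiers and called genes within 2 kb. Alternatives were other pseudocounts, filters and scalings, recovered reads, a replicate block and each library left out. No annotation of TE families was used, and relatives were found by sequence alone.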

Additional observations from a re-analysis of the deposited data

How the results depend on the processing

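Beside the 28 higher calls, pseudocounts of 0.5, 10 and 100 TPM and both rescalings gave 24 to 30 calls, while no filter gave 9, a mean of at least 100 TPM gave 9, quantile normalization gave 8 and recovered reads gave 18. Leaving out 1 library gave 0 to 16 with the filter applied anew and 10, 10, 13, 18, 21 and 21 on the features of the full test (Col 1 to 3, then tsk-4 1 to 3). The count of lower calls was 2 with a pseudocount of 10 TPM, 0 with no filter, 8 with quantile normalization, 2 on recovered reads, and with 1 library left out 0 to 2 or, on the features of the full test, 0 to 5. Apart from the filter of 3 libraries, the cause was not tested. Of the 28, AT2G10280 and AT2G12770 turned negative under quantile normalization.

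The numbers of the libraries do not pair them: same-numbered deviations in the TE gene table correlated at -0.060, 0.023 and 0.0062. With the replicate block 20 were called higher, 18 of them shared, and 1 lower, which was not AT2G03540, and the difference in detected TE genes was 77 (paired exact p = 0.25, the smallest possible). The share of TE gene reads on chromosome 2 turned from -1.09 to 0.896 percentage points without the 5 TE genes with the most reads. Detection kept its direction at each read minimum and at the smallest depth (a difference of 74.01).

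Uncalled members near 0 changed sign. AT2G07070 was at -0.56 and AT2G10900 at -0.87 under quantile normalization, and AT2G11240 at 8.9e-05 with median-ratio scaling. With 1 library left out AT2G10900 ran from -0.31 to 0.48 (-0.29 without Col 1, -0.0041 without tsk-4 1, -0.31 without tsk-4 3) and AT2G24760 from -0.047 (without Col 3) to 0.14, with -0.017 without tsk-4 1. Most members had too few reads to be tested, and for those with 0 reads low depth and absent RNA cannot be told apart.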

Other observations

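The annotated TE fragments of chromosome 2, listed in a table of their own, were detected more often in tsk-4. Their positions were not used, and a read may count on a fragment and on a TE gene, so this is not a separate measurement. Above 0 TPM were 457, 460 and 489 fragments in Col replicates 1, 2 and 3 and 579, 547 and 578 in tsk-4. The groups did not overlap, with means of 468.7 ± 17.7 and 568 ± 18.2 fragments (SD, n = 3; two-sided exact permutation p = 0.1, the smallest possible). The ratio was 1.21, and fragments of the other chromosomes went from 2295 ± 24.6 to 2653 ± 38.4, a ratio of 1.16.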
